A study of Homo sapiens with 19 samples.

Results

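Aminoacyl-tRNA synthetases are the enzymes that load each tRNA with its amino acid, and 35 of their genes were examined here in U2OS cells, an established human osteosarcoma line. They were taken by symbol from a table of 24641 genes. The 19 cytosolic genes end in 1 or are FARSA and FARSB, and the 16 mitochondrial genes end in 2. Cells transfected with EP400 siRNA were compared with cells transfected with mock siRNA directed against GFP. EP400 is a chromatin remodeller, a motor ATPase found in complex with the acetyltransferase TIP60. Both groups were harvested 72 hr after transfection and had been grown in DMEM with Tet-approved FBS, and the number of distinct siRNAs used against EP400 is not given in the sources used here. Each group had 1 RNA-seq library and 1 chromatin immunoprecipitation (ChIP) library each for RNA polymerase II (Pol II), the Mediator subunit MED26 and the histone variants H2AZ and H3.3. The mock group also had 1 library each of the histone marks H3K18ac and H3K4me1. EP400 itself was mapped in 3 immunoprecipitations, deposited as 1 list, whose titles name no siRNA. With 1 library per condition there was no replicate, so no difference below carries a test, a p-value or an SD.

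Cytosolic protein synthesis and mitochondrial protein synthesis use separate sets of tRNAs, and most amino acids therefore have a cytosolic and a mitochondrial synthetase encoded by different nuclear genes. GARS1 and KARS1 are exceptions, since each of these genes makes both forms of its enzyme. Several cytosolic synthetases sit together in the multisynthetase complex, which is held together by the scaffold proteins AIMP1, AIMP2 and EEF1E1, and the others act outside it. Many cytosolic synthetase genes are known targets of ATF4, a transcription factor whose translation increases when amino acids are short or the endoplasmic reticulum is stressed. ATF4 pairs with C/EBP proteins at composite sites with the core TGATGNAA.

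Because the genes differ in their start regions as well as in their RNA, 250 bases upstream of each annotated start were read from RefSeq (GRCh38.p14) for the 30 of 35 genes that have an entry. Both strands were searched for the core TGATGNAA, the ETS-type motif CCGGAAG, the NRF1-type motif (GCGCA and GCGC with any 1 base between them) and the E-box CACGTG, and no match of one motif overlapped a match of another in these genes. The stretches shown first belong to the 4 genes with the highest RNA ratio, WARS1, TARS1, CARS1 and GARS1. Capitals mark CCGGAAG, or its reverse complement CTTCCGG, in the first 3, which are the 80 bases before the start that lies farthest upstream. In GARS1, capitals mark the reverse complement of TGATGNAA within 30 bases that are themselves transcribed from a start farther upstream. The positions are chr14:100376328-100376407 on the minus strand for WARS1, chr5:33440616-33440695 on the plus strand for TARS1, chr11:3057424-3057503 on the minus strand for CARS1 and chr7:30594834-30594863 on the plus strand for GARS1.
WARS1: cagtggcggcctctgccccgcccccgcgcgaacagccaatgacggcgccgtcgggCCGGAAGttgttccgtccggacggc
TARS1: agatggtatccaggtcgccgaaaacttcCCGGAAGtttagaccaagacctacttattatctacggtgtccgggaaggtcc
CARS1: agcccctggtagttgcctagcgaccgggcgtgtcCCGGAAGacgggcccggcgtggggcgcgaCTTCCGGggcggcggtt
GARS1: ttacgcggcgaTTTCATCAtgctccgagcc

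CCGGAAG was found upstream of 9 of 16 cytosolic genes and 7 of 14 mitochondrial genes, against 10.2% of the 27305 genes with an entry and 19.6% of the 9074 among them whose RNA was analysed. HARS1 and HARS2 are transcribed in opposite directions, and the 84 bases between their starts (chr5:140691371-140691454, shown on the plus strand) hold 2 matches. Through these same matches HARS1 is in the cytosolic count and HARS2 in the mitochondrial count. QARS1 has the lowest RNA ratio of the cytosolic genes, and the 80 bases before its start (chr3:49104758-49104837, minus strand) hold none. The same length is shown for SARS2 (chr19:38930764-38930843, minus strand) and CARS2 (chr13:110706516-110706595, minus strand), the 2 mitochondrial genes with the lowest ratio. The CCGGAAG match of SARS2 lies farther upstream than the bases printed, and that of CARS2 belongs to another annotated start.
HARS1 to HARS2: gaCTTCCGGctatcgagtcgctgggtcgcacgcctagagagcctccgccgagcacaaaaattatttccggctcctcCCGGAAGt
QARS1: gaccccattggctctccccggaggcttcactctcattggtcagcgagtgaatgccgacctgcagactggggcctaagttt
SARS2: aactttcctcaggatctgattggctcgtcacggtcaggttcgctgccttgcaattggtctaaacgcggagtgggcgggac
CARS2: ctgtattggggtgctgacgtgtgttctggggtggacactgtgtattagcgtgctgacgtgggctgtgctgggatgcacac

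TGATGNAA was found upstream of 3 of 16 cytosolic genes (AARS1, GARS1 and IARS1) and 1 of 14 mitochondrial genes (YARS2), against 3.89% of all genes with an entry and 2.22% of those whose RNA was analysed. AARS1, IARS1 and YARS2 were chosen for printing after the match was seen, and capitals mark it. Their stretches are chr16:70289650-70289729 for AARS1, chr9:92293698-92293777 for IARS1 and chr12:32756051-32756130 for YARS2, each on the minus strand. The NRF1-type motif was found upstream of 2 cytosolic and 2 mitochondrial genes, against 1693 of the 27305 genes and 12.3% of those with RNA. CACGTG was found upstream of 1 cytosolic and 2 mitochondrial genes, against 7.73% and 11.3%. A match describes these letters alone and does not show that a factor binds.
AARS1: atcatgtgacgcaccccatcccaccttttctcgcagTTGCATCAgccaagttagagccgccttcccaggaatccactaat
IARS1: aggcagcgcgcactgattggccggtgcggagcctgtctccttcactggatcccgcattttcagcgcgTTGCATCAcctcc
YARS2: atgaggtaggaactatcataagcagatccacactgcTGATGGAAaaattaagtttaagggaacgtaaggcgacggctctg

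EP400, the gene targeted by the siRNA, had 2.28 FPKM after EP400 siRNA and 10.04 FPKM after mock siRNA. FPKM is a level per transcript length and library size. Ratios are log2 of (FPKM + 1) after EP400 siRNA over (FPKM + 1) after mock siRNA, which understates the difference of low genes. Over the 11738 genes with a mean of 1 FPKM or more, the median log2 ratio was -0.20, so the typical gene was lower after EP400 siRNA. At a 2-fold limit, 6.11% of them were higher and 22.9% lower. When both libraries were rescaled to the same sum (TPM), the median of all genes moved up by 0.68 to 0.48, so the direction of a gene near 0 depends on the scaling. Of 8 markers of the mesenchymal and osteoblast lineage, 4 reached 1 FPKM after EP400 siRNA and 6 after mock siRNA. VIM stood at 1132 and 618 FPKM, COL1A1 at 60.8 and 376 FPKM, and COL1A2 and SP7 were near 0 in both. KRT8 and KRT18 were the most abundant of 7 epithelial markers, whose sum was 433 FPKM after EP400 siRNA and 895 FPKM after mock siRNA. All 5 leukocyte and 4 endothelial markers stayed below 1 FPKM in both libraries. The part of these marker differences in the results below was not tested.

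The cytosolic synthetase genes were mostly higher after EP400 siRNA and the mitochondrial ones were spread on both sides of 0. Of 19 cytosolic genes, 10 reached the 2-fold limit on the higher side and 0 on the lower side, with a median log2 ratio of 1.07. Over all genes, 6.11% reached it on the higher side and 22.9% on the lower side. Of 15 mitochondrial genes with an estimate, 0 were at least 2-fold higher or lower, with a median of 0.24. Among those with a mean of 5 FPKM or more, the median was -0.029, the ratio of FARS2. VARS2 has a failed estimate in the mock library and was left out of all RNA values. The cytosolic median lay 1.26 above the median of all genes and the mitochondrial median 0.43 above it. The log2 ratio was above 0 in 15 of 19 cytosolic and 9 of 15 mitochondrial genes, against 42.6% of all genes. After rescaling to equal sums, at least 2-fold higher levels were seen in 15 of 19 cytosolic and 7 of 15 mitochondrial genes, against 31.6% of all genes, and 0 members were at least 2-fold lower, where 5.96% of all genes were. The medians with equal sums were 1.84 and 0.98. The gap between the medians was 0.83 as deposited, 0.86 with equal sums, 0.61 when each gene was set against genes of like local density, and 0.45 when set against its own chromosome. On the last scale 9 cytosolic and 2 mitochondrial genes were at least 2-fold higher, where 9.93% of all genes were. No member had confidence limits, as deposited by the authors, that were apart between the libraries, which 0.213% of all genes had. In bulk RNA, fewer cells of a type and less RNA per cell cannot be told apart.

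**Figure D1:**
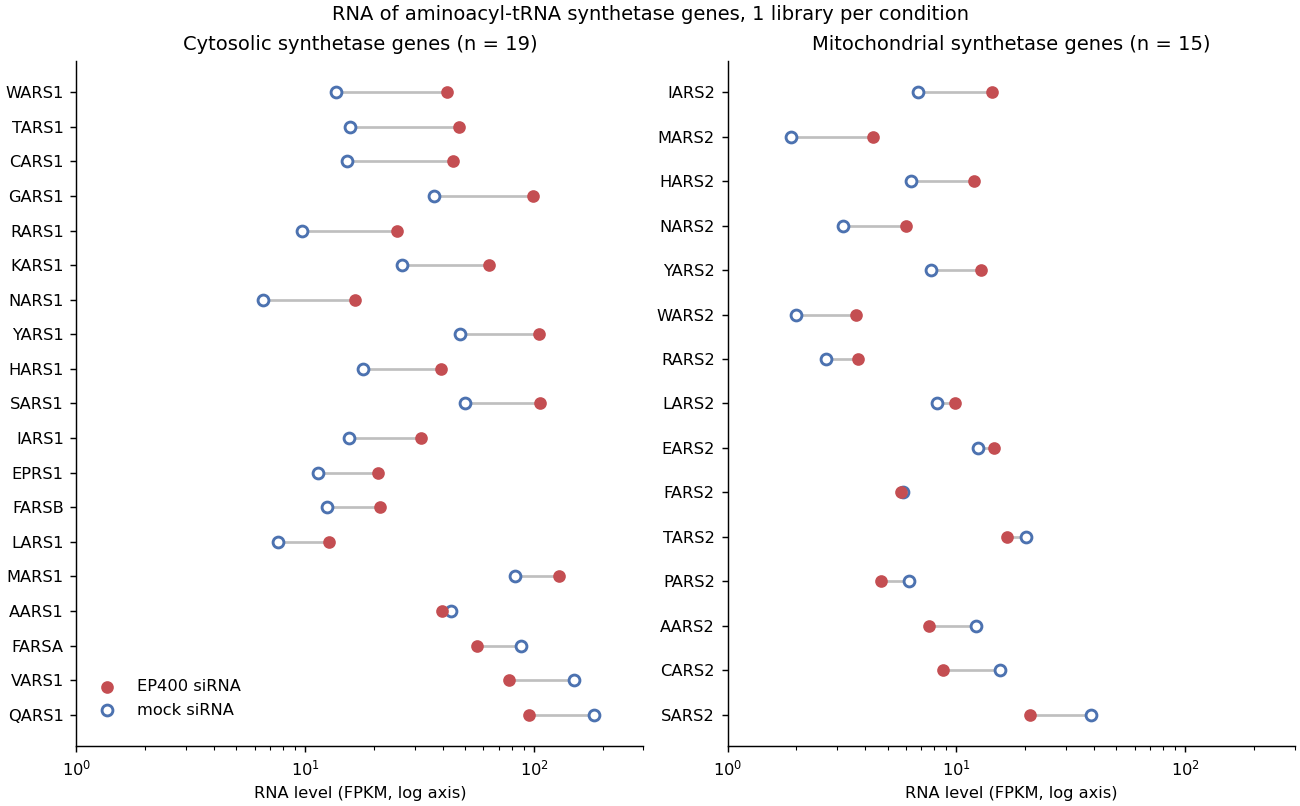
RNA level (FPKM, log axis) of each synthetase gene after EP400 siRNA (filled circles) and mock siRNA (open circles), 1 library each, ordered by log2 ratio with cytosolic genes at left and mitochondrial genes at right. The filled circle lies to the right of the open one in 15 of 19 cytosolic and 9 of 15 mitochondrial genes.

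Outside the multisynthetase complex, 8 of 12 cytosolic genes were at least 2-fold higher, against 6.11% of all genes, with a median log2 ratio of 1.11. WARS1, which charges tRNA with tryptophan, stood at 41.6 FPKM after EP400 siRNA and 13.6 FPKM after mock siRNA, the highest ratio of all members (1.54). TARS1, the threonine enzyme, stood at 46.7 and 15.6 FPKM (log2 ratio 1.52). CARS1, the cysteine enzyme, stood at 44.2 and 15.2 FPKM (1.48). Within each library these 3 genes had similar levels. GARS1, the glycine enzyme of both compartments, was more abundant, at 98.8 and 36.5 FPKM (1.41). NARS1, the asparagine enzyme, had the lowest mock level of the cytosolic set and stood at 16.5 and 6.51 FPKM (1.22). YARS1, the tyrosine enzyme, stood at 104.7 and 47.5 FPKM (1.12). HARS1 and SARS1, the histidine and serine enzymes, were close to the 2-fold limit. HARS1 stood at 39.1 and 17.8 FPKM (1.09), and SARS1 at 105.6 and 49.96 FPKM (1.07).

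The remaining 4 genes outside the complex were below the limit. Cytosolic phenylalanyl-tRNA synthetase is built from 2 kinds of subunit, and their RNAs lay on opposite sides of 0. FARSB, its beta subunit, stood at 21.3 FPKM after EP400 siRNA and 12.4 FPKM after mock siRNA (log2 ratio 0.73). FARSA, its alpha subunit, stood at 56.3 and 87.1 FPKM (-0.62, but 0.14 with equal sums and 0.33 against genes of like density). FARSA thus exceeded FARSB in both libraries, by less after EP400 siRNA. AARS1, the alanine enzyme, stood at 39.7 and 43.4 FPKM (-0.13, but 0.64 with equal sums). VARS1, the valine enzyme, stood at 77.8 and 148 FPKM (-0.92, and -0.16 with equal sums, but 0.11 against genes of like density).

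Among the 7 enzymes of the multisynthetase complex, 2 were at least 2-fold higher, against 6.11% of all genes, and the median log2 ratio was 0.82. RARS1, the arginine enzyme, stood at 25.1 FPKM after EP400 siRNA and 9.68 FPKM after mock siRNA (1.29). KARS1, the lysine enzyme of both compartments, stood at 63.4 and 26.4 FPKM (1.23). Both were higher by about as much as the genes outside the complex. IARS1, the isoleucine enzyme, stood at 31.9 and 15.5 FPKM, a raw ratio of 2.05 that became 0.99 on the log2 scale with the added 1. EPRS1, which charges tRNAs with both glutamate and proline, stood at 20.9 and 11.4 FPKM (0.82). LARS1, the leucine enzyme, had the lowest level of the cytosolic set after EP400 siRNA, at 12.7 FPKM, and 7.63 FPKM after mock siRNA (0.67). MARS1, the methionine enzyme, stood at 129 and 82.5 FPKM (0.64). QARS1, the glutamine enzyme, went the other way, at 95.1 and 183 FPKM (-0.94, -0.17 with equal sums, 0.01 against genes of like density, -1.10 against its chromosome). On the last scale it was the 1 cytosolic gene at least 2-fold lower, where 13.5% of all genes were. QARS1 was the most abundant member after mock siRNA and the fifth after EP400 siRNA. Of the 3 scaffold genes, 0 were at least 2-fold higher as deposited and 2 were with equal sums, where 6.11% and 31.6% of all genes were. The log2 ratio of AIMP1 was 0.72 as deposited and 1.498 with equal sums, that of EEF1E1 0.35 and 1.11, and that of AIMP2 -0.22 and 0.55.

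Synthetases fall into 2 classes by the fold of their catalytic domain, and both classes held genes on each side. Of the 10 cytosolic genes of class I, 4 were at least 2-fold higher (median log2 ratio 0.90), and of the 9 of class II, 6 were (1.09). The share of all genes at this limit was 6.11%. EPRS1, which charges tRNAs with both glutamate and proline, was counted in class I only. The summed level of all 19 cytosolic genes was 1070.2 FPKM after EP400 siRNA and 830.2 FPKM after mock siRNA, and their median level was 44.2 and 17.8 FPKM. The order of levels within the set differed between the libraries. QARS1, VARS1, FARSA and MARS1 led after mock siRNA, whereas MARS1, SARS1, YARS1 and GARS1 led after EP400 siRNA. Within each library, neighbours in this order had overlapping confidence limits.

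**Figure D2:**
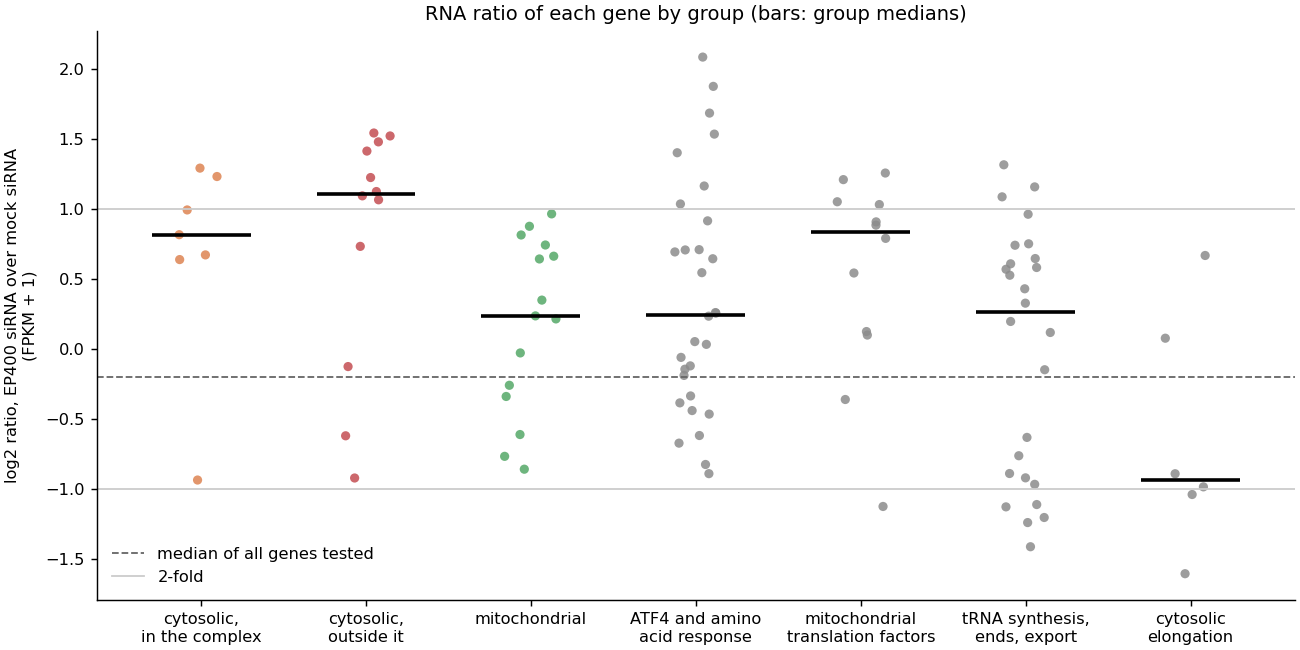
Log2 ratio of RNA, EP400 siRNA over mock siRNA (FPKM + 1), for each gene of the synthetase groups and of related gene lists, 1 point per gene, with black bars at group medians, a dashed line at the median of all 11738 genes and grey lines at 2-fold. The median is 0.82 for cytosolic genes in the complex, 1.11 for those outside it, 0.24 for mitochondrial genes and -0.20 for all genes.

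Mitochondrial synthetase genes had lower levels than the cytosolic ones, close to the typical gene (7.63 FPKM after mock siRNA), with a median of 8.73 FPKM after EP400 siRNA and 6.81 FPKM after mock siRNA and sums of 145.5 and 150.2 FPKM. IARS2, the mitochondrial isoleucine enzyme, had the highest ratio, at 14.2 and 6.81 FPKM (log2 ratio 0.96). MARS2, the methionine enzyme, was lowest in level after mock siRNA, at 4.31 FPKM after EP400 siRNA and 1.90 FPKM after mock siRNA (0.88). The raw ratios of these 2 genes were 2.09 and 2.28, past 2-fold without the added 1. HARS2, the histidine enzyme, stood at 11.9 and 6.34 FPKM (0.81), and NARS2, the asparagine enzyme, at 6.01 and 3.19 FPKM (0.74). YARS2 and WARS2, the tyrosine and tryptophan enzymes, had log2 ratios of 0.66 and 0.64. RARS2, LARS2 and EARS2, for arginine, leucine and glutamate, had log2 ratios of 0.35, 0.24 and 0.21. FARS2, a single-chain phenylalanine enzyme, stood at 5.72 and 5.85 FPKM (-0.03). The other 5 genes with an estimate were lower after EP400 siRNA. SARS2, the serine enzyme and the most abundant mitochondrial gene in both libraries, stood at 20.9 and 38.8 FPKM (-0.86, but 0.09 against genes of like density). CARS2, the cysteine enzyme, stood at 8.73 and 15.6 FPKM and had a log2 ratio of -0.77, which stayed below 0 under each scaling run (-0.06 with equal sums, -0.98 against genes of like density, -1.02 against its chromosome). On the last scale it was the 1 mitochondrial gene at least 2-fold lower, where 13.5% of all genes were. AARS2 and PARS2, for alanine and proline, had ratios of -0.61 and -0.34, and TARS2, for threonine, of -0.26. These 3 were at 0.09, 0.34 and 0.49 with equal sums.

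For 12 amino acids a cytosolic gene and a mitochondrial gene with the same letter both had an estimate, and the cytosolic gene had the higher log2 ratio in 11 of these pairs, by a median of 0.48. The gap was 2.25 for cysteine, 1.93 for serine and 1.78 for threonine, where the cytosolic gene was at least 2-fold higher and the mitochondrial gene was lower. For isoleucine it was 0.03. Methionine was the exception, where the difference, MARS1 minus MARS2, was -0.24. Glutamate, proline and phenylalanine have no such single pair. EPRS1 (0.82) serves glutamate beside EARS2 (0.21) and proline beside PARS2 (-0.34), and for phenylalanine FARS2 (-0.03) lay between FARSB (0.73) and FARSA (-0.62). In level, the cytosolic gene exceeded its mitochondrial partner for 12 of these 12 amino acids after EP400 siRNA and 9 of 12 after mock siRNA. The 3 that changed order were cysteine, leucine and threonine. CARS1 had 5.06 times the level of CARS2 after EP400 siRNA and 0.976 times after mock siRNA. TARS1 had 2.80 times the level of TARS2 after EP400 siRNA and 0.774 times after mock siRNA.

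**Figure D3:**
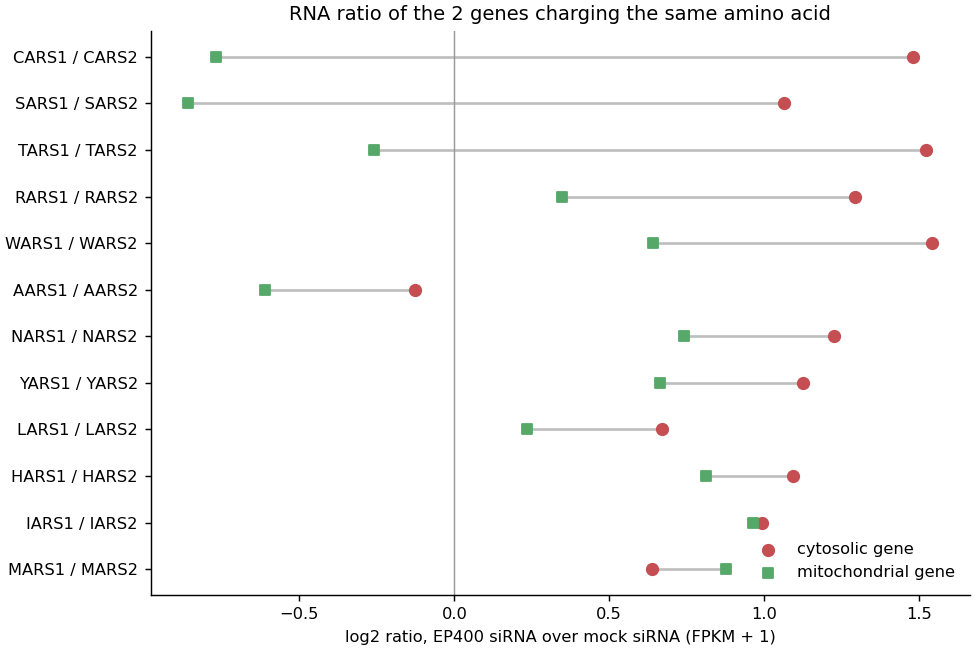
Log2 ratio of RNA (EP400 siRNA over mock siRNA, FPKM + 1) of the cytosolic gene and the mitochondrial gene for each of 12 amino acids, joined by a line. The cytosolic gene is the higher of the pair in 11 of 12, with methionine the exception.

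The table lists several transcripts for some genes, and the higher level after EP400 siRNA was not equal over them. For TARS1, NM_152295 stood at 16.3 FPKM after EP400 siRNA and 1.20 FPKM after mock siRNA, and NM_001258437 at 25.4 and 9.66 FPKM. For WARS1, NM_173701 stood at 29.4 and 11.4 FPKM, and NM_004184 at 5.38 FPKM after EP400 siRNA and was listed at 0 after mock siRNA. For CARS1, NM_001751 stood at 28.1 and 11.6 FPKM and NM_139273 at 12.7 and 2.69 FPKM. For KARS1, both transcripts were higher, NM_005548 at 54.0 and 22.8 FPKM and NM_001130089 at 9.45 and 3.59 FPKM. For HARS1, the most abundant transcript, NM_002109, stood at 28.3 and 14.8 FPKM (log2 ratio 0.89), below the 2-fold limit that the summed gene passed. Some minor transcripts were lower after EP400 siRNA. NR_047678 of TARS1 stood at 3.16 and 4.29 FPKM, NM_213646 of WARS1 at 0.895 and 1.16 FPKM, and NM_001289093 of HARS1 at 1.17 and 2.12 FPKM. The limits of each transcript overlapped between the libraries, and the division of reads between transcripts of a gene is an estimate.

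Genes that act beside the synthetases were read from lists chosen with earlier results of these data known. Of 30 genes of the ATF4 and amino acid response list with an estimate, 7 were at least 2-fold higher and 0 lower, where 6.11% and 22.9% of all genes were, with a median log2 ratio of 0.24, the same as the mitochondrial synthetases to 2 decimals. ATF4 itself stood at 403 FPKM after EP400 siRNA and 196 FPKM after mock siRNA (1.04). DDIT3, a stress-induced C/EBP relative, stood at 32.8 and 6.97 FPKM (2.09). It shares its locus with MARS1, and its limits ran up to 992 and 408 FPKM. ASNS, which makes asparagine, stood at 41.7 and 10.6 FPKM (1.88), and MTHFD2, a mitochondrial folate enzyme, at 47.5 and 14.1 FPKM (1.68). SLC7A11, the cystine transporter, stood at 3.16 and 0.436 FPKM (1.53). Other genes of the list were lower, as 12 of the 30 had a log2 ratio below 0, where 6732 of all 11738 genes did. Among the 12 was PHGDH, the first enzyme of serine synthesis, at 135 and 241 FPKM (-0.83). With equal sums, 16 of the 30 were at least 2-fold higher, where 31.6% of all genes were, and the median was 1.01, where that of all genes was 0.48.

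Elongation factors of the cytosol deliver charged tRNA to the ribosome and move it along. As deposited, 4 of 6 of their genes were below 0, where 6732 of all 11738 genes were. Of 6 such factors, 2 were at least 2-fold lower and 0 higher, where 22.9% and 6.11% of all genes were, with a median of -0.94 that became 0.01 against genes of like density. The count of lower genes was 0 both against genes of like density and with equal sums, where 10.9% and 5.96% of all genes were lower. It was 1 when set against the median of all genes and 2 against the gene's own chromosome, where 15.6% and 13.5% were. EEF1A1, the main carrier of charged tRNA, was at 0.67. EEF1A2 had a log2 ratio of -1.61, EEF1D of -1.04 and EEF2, the translocase, of -0.99, and EEF1G of -0.89. Mitochondrial translation factors and the glutaminyl-tRNA amidotransferase, which supplies mitochondria with glutaminyl-tRNA in place of a mitochondrial synthetase, had 4 of 12 genes at least 2-fold higher and 1 lower (median 0.84), where 6.11% and 22.9% of all genes were. MTIF2, an initiation factor, was at 1.26, GFM2, a recycling factor, at 1.21, GATB, an amidotransferase subunit, at 1.05, and TUFM, an elongation factor, at -1.13. Among 26 genes of tRNA synthesis, end processing and export, 3 were at least 2-fold higher and 5 lower (median 0.26), where 6.11% and 22.9% of all genes were. With equal sums 13 were higher and 0 lower, where 31.6% and 5.96% of all genes were. XPOT, the tRNA exporter, was at 1.32, whereas TSEN34, a subunit of the splicing endonuclease, was at -1.41, MAF1, a repressor of RNA polymerase III, at -1.24, and POP7, a subunit of RNase P, at -1.21.

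The cytosolic genes that were lower after EP400 siRNA lay in gene-rich surroundings, and the mitochondrial ones mostly did not. Local density is given here as how many loci lie no farther than 500 kb from the middle of a gene's own locus. The 4 cytosolic genes below 0 had 17 to 54 such loci (median 32.5), and the 15 above 0 had 2 to 31 (median 12). The 6 mitochondrial genes below 0 had 3 to 31 (median 13), and the 9 above 0 had 2 to 25 (median 8), where the median of all genes was 14. The 4 cytosolic genes were also the more abundant after mock siRNA, at 43.4 to 183 FPKM, against 6.51 to 82.5 FPKM for the 15. Over the whole table, the median log2 ratio of all genes was 0.30 in the lowest of 10 density groups and -1.03 in the highest. Spearman's rho between density and log2 ratio was -0.52 over the 19 cytosolic genes, -0.53 over the 15 mitochondrial genes and -0.47 over all genes. These points share the same 2 libraries. Set against genes of like density, all 19 cytosolic genes were above 0. Of all 11738 genes, 5868 were, a share set by centring on group medians. QARS1 (0.01), AARS1 (0.06), VARS1 (0.11) and FARSA (0.33) were the cytosolic genes nearest to 0. On this scale 9 cytosolic genes were at least 2-fold higher, where 8.7% of all genes were. Of the 10 genes at least 2-fold higher as deposited, 8 were among these 9, without NARS1 (0.90) and RARS1 (0.97), and MARS1 (1.59) was added. SARS1 and HARS1 stood out the other way, at 2.01 and 1.84 on this scale. The part of density in the differences was not tested.

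**Figure D4:**
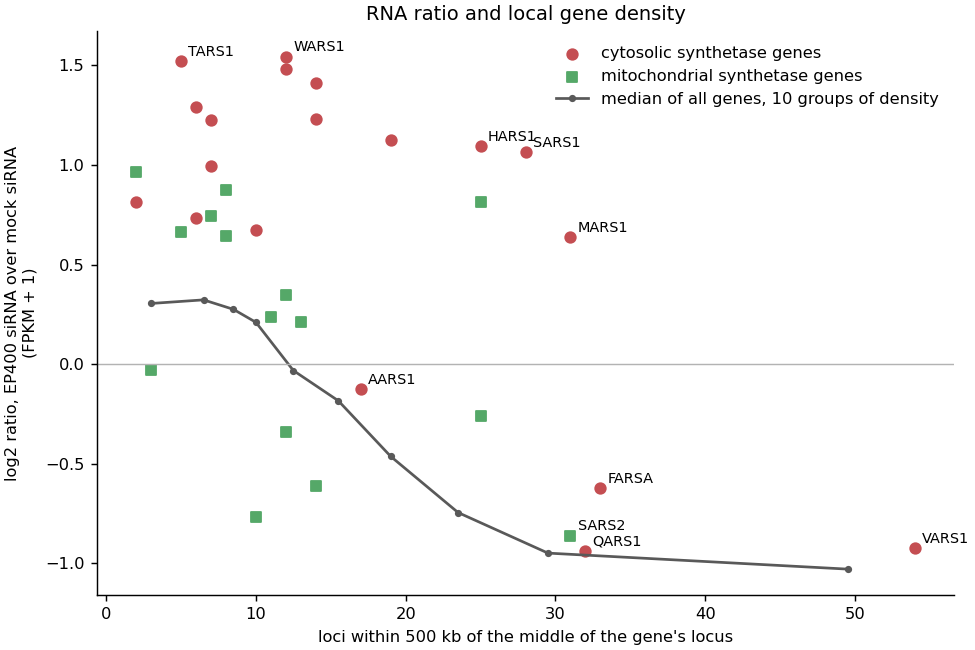
Log2 ratio of RNA (EP400 siRNA over mock siRNA, FPKM + 1) against local gene density (loci no farther than 500 kb from the middle of the locus), with cytosolic genes as circles, mitochondrial genes as squares and the median of all genes in 10 groups of density as a line. QARS1 and VARS1 lie near the line, at 32 and 54 loci, and SARS1 and HARS1 lie far above it at 28 and 25 loci.

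Peaks were counted at both ends of each locus, within 2 kb to the left or right of the end, in hg19 coordinates, since the table gives loci without strand. EP400 peaks were found at the ends of 7 of 19 cytosolic and 2 of 16 mitochondrial genes, against 35.2% of 11834 genes and 42.7% of those at 10 FPKM or more. Anywhere in the locus, the numbers were 11 and 6, against 48.2%. The widest at an end were at IARS1, where peaks at chr9:95055501-95055650 and chr9:95055851-95056300 lie at the upper end of the locus. TARS1 had 300 bp of peak near its lower end, VARS1 300 bp at chr6:31763401-31763700, and GARS1 250 bp at chr7:30634301-30634550. FARSB, KARS1 and MARS1 had 100 bp or less. The MARS1 peak, chr12:57915451-57915500, lies past the upper end of the locus that MARS1 shares with DDIT3. MARS1 is on the plus strand, so that is not its start side. The mitochondrial genes with a peak were EARS2 and FARS2. YARS1 held 750 bp of EP400 peaks inside its locus, which it shares with S100PBP, and none at the ends. WARS1, CARS1, NARS1 and HARS1, all at least 2-fold higher in RNA, had no EP400 peak in the locus. The median log2 ratio was 1.07 in the 11 cytosolic genes with an EP400 peak in the locus and 0.88 in the 8 without, and 6 and 4 of them were at least 2-fold higher. In mitochondrial genes it was 0.44 in 6 with a peak and -0.26 in 9 without. Over all genes it was -0.13 with a peak and -0.27 without, where 368 of 5636 and 349 of 6097 were at least 2-fold higher.

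The marks of active start regions were read in mock cells only. H3K18ac peaks, an acetylation of active promoters and enhancers, lay at 12 of 19 cytosolic and 9 of 16 mitochondrial genes, against 72.5% of all genes and 79.8% of those at 10 FPKM or more. H3K4me1, a methylation typical of enhancers and promoter flanks, lay at 9 cytosolic genes and 1 mitochondrial gene (TARS2), against 30.4% and 38%. Anywhere in the locus, H3K18ac was found in 25 of 35 members (81.8% of all genes) and H3K4me1 in 17 (53.1%). A peak that overlapped an end by 1 bp was counted with its whole width, here and below. The H3K18ac length was 3200 bp at MARS1 (2300 bp inside the windows) and 2300 bp at VARS1. MARS1 is on the plus strand and shares its locus with DDIT3. Of its H3K18ac length, 300 bp lay at the lower end and 2900 bp at the upper end. WARS2 had a 3300 bp peak of which 96 bp lay inside the window. The mock Pol II peak of the WARS2 locus lay elsewhere, at chr1:119682701-119683800. WARS1, RARS1, KARS1 and NARS1 had no H3K18ac peak at their ends.

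Pol II peaks were shorter after EP400 siRNA at nearly all members, those with higher RNA included, as they were at most genes. A Pol II peak lay at 16 of 19 cytosolic and 13 of 16 mitochondrial genes after EP400 siRNA, against 79.6% of all genes, and at 18 and 14 after mock siRNA, against 84.9%. Of 32 members with a mock peak, 3 had none at their ends after EP400 siRNA (YARS1, LARS1 and TARS2), against 7.26% of all genes. YARS1 kept Pol II inside its locus, which it shares with S100PBP. Its summed length over the locus was 1100 bp after EP400 siRNA and 2300 bp after mock siRNA. Where both libraries had a peak, its summed length was less after EP400 siRNA in 27 of 29 members, against 85.1% of all genes. The share was 89.2% among genes at 10 FPKM or more, so the members lay near the share of such genes. The 10 genes with RNA at least 2-fold higher divided into 9 with less Pol II length and 1 with equal length, against 83.2% with less among all such genes. Anywhere in the locus, Pol II was found in 33 of 35 members after EP400 siRNA (86.7% of all genes) and 35 after mock siRNA (91.3%). RARS1 had 200 bp of Pol II peak at its ends after EP400 siRNA and 1000 bp after mock siRNA, and TARS1 had 300 and 1000 bp. GARS1 had 900 and 1400 bp, WARS1 600 and 700 bp, and SARS1 800 bp in both. AARS1 had 1100 bp after EP400 siRNA and 3600 bp after mock siRNA, and QARS1 1500 and 2700 bp (837 and 2037 bp inside the windows). Lengths were therefore less both in genes with higher RNA and in genes with lower RNA. The Pol II list held 20987 peaks after EP400 siRNA and 30760 after mock siRNA. Peak number and width depend on depth, which is unknown, and the lists carry no height, so the part of depth in these lengths was not tested.

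MED26 peaks were kept at the ends of the members, with lengths that went both ways. MED26 lay at 17 of 19 cytosolic and 14 of 16 mitochondrial genes after EP400 siRNA, against 75.2% of all genes, and at 17 and 13 after mock siRNA, against 78.4%. Of 30 members with a mock peak, 0 lacked one after EP400 siRNA, against 7.25% of all genes. Of these 30 members, 17 had less MED26 length after EP400 siRNA, 6 equal and 7 more, where 62.7% of all genes had less. Anywhere in the locus, MED26 was found in 35 of 35 members after EP400 siRNA (84.9% of all genes) and 34 after mock siRNA (86.9%). TARS1 had 1100 bp after EP400 siRNA and 1200 bp after mock siRNA, GARS1 800 and 700 bp, and WARS1 500 bp in both. TARS2 had 800 bp after EP400 siRNA and 400 bp after mock siRNA.

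H2AZ lay at 10 of 19 cytosolic and 8 of 16 mitochondrial genes after EP400 siRNA, against 55% of all genes, and at 15 and 12 after mock siRNA, against 74.7%. Of 27 members with a mock peak, 9 had none after EP400 siRNA, against 28.4%. Of the 18 with a peak in both, 14 had less length after EP400 siRNA, against 83.5%. Anywhere in the locus, H2AZ was found in 22 of 35 members after EP400 siRNA (62.7% of all genes) and 34 after mock siRNA (82.7%). SARS1 had none after EP400 siRNA and 400 bp after mock siRNA, TARS1 none and 600 bp, and KARS1 300 and 1200 bp. RARS1 went the other way, with 400 bp after EP400 siRNA and 300 bp after mock siRNA.

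H3.3 peaks were lost from more of the members than any of the other 3 antibodies. H3.3 lay at 10 cytosolic and 4 mitochondrial genes after EP400 siRNA, against 34.2% of all genes, and at 16 and 13 after mock siRNA, against 68.8%. Of 29 members with a mock peak, 18 had none after EP400 siRNA, 8 of 16 cytosolic and 10 of 13 mitochondrial, against 58% of all genes. The members thus lay near the share of all genes. Of the 11 with a peak in both, 9 had less length after EP400 siRNA, against 75%. Anywhere in the locus, H3.3 was found in 21 of 35 members after EP400 siRNA (55.4% of all genes) and 32 after mock siRNA (79%). The widest mock lengths at gene ends were 3600 bp at VARS1, which had 700 bp after EP400 siRNA, and 3500 bp at YARS1 (2062 bp inside the windows), which had none. AARS1 had 900 bp after EP400 siRNA and 2600 bp after mock siRNA, and QARS1 none and 2000 bp. RARS1, EPRS1 and IARS2 had an H3.3 peak at an end of the locus after EP400 siRNA and none there after mock siRNA. EPRS1 and IARS2 share 1 locus, and theirs is the same 100 bp peak, at chr1:220321301-220321400. The ends of a shared locus need not be those of each gene in it. Over that whole locus, H3.3 peaks lay in both libraries, with 1300 bp after EP400 siRNA and 800 bp after mock siRNA. The H3.3 list held 41439 peaks after EP400 siRNA and 79838 after mock siRNA, and the H2AZ list 26526 and 58082.

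**Figure D5:**
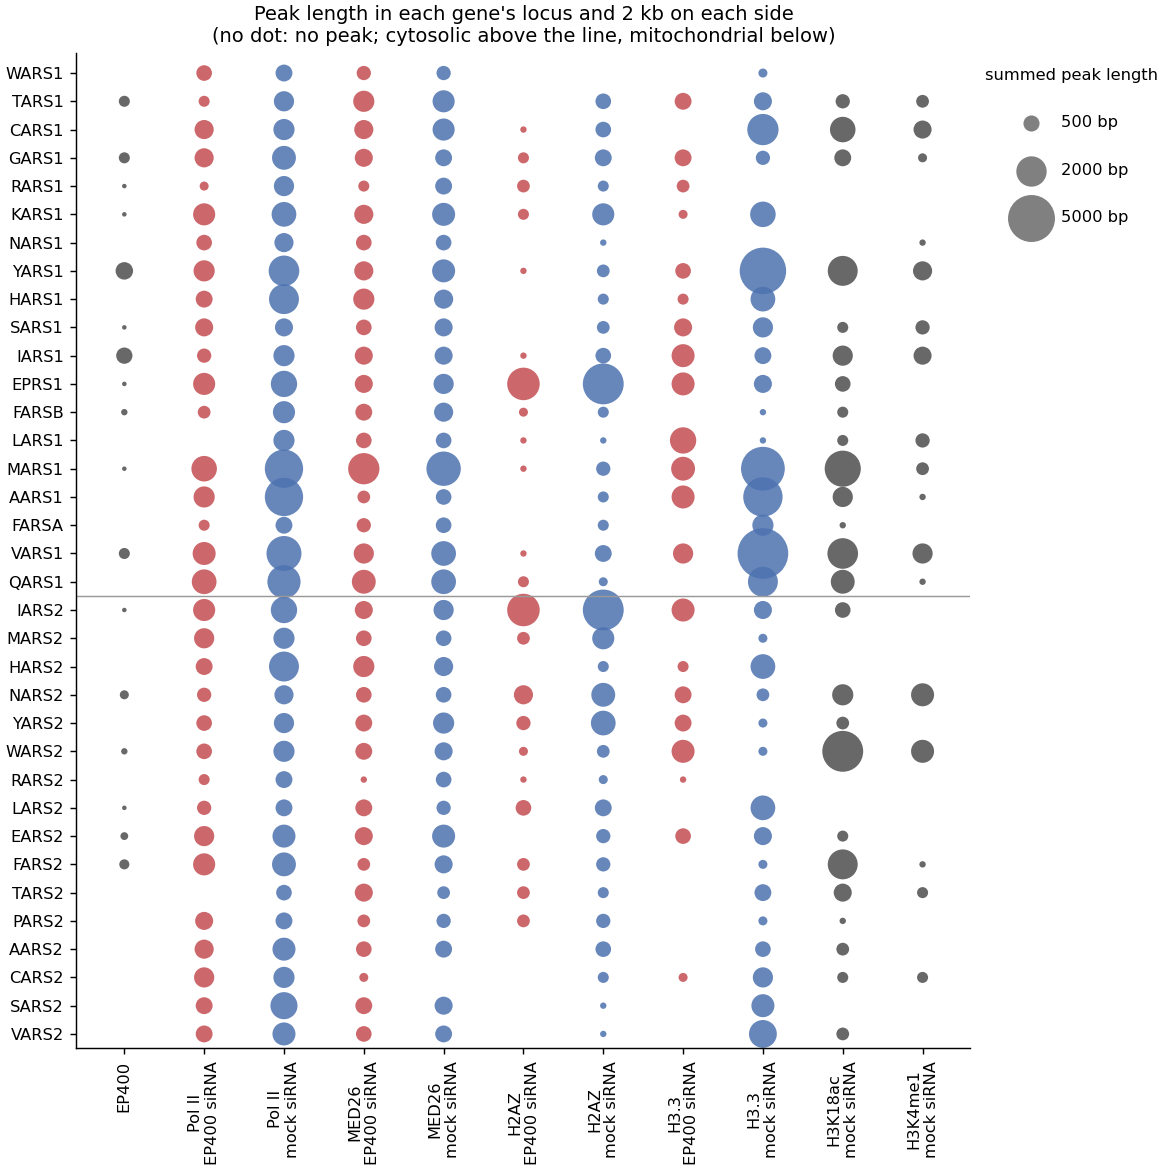
Summed peak length (bp, area of the dot) of each antibody in the locus of each synthetase gene and 2 kb on each side, cytosolic genes above the line and mitochondrial genes below it, each ordered by RNA log2 ratio with VARS2, which has none, last. Each EP400 siRNA column stands left of its mock siRNA column, and the H3.3 dots in the EP400 siRNA column are absent for 14 of 35 genes, against 3 of 35 in the mock siRNA column.

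For the 16 members that lie alone in a locus longer than 4 kb and have a strand in RefSeq, the start could be told from the far end. MARS2 was left out, as its locus of 3088 bp is too short to separate its ends. Pol II lay at 16 of 16 starts in both libraries, against 84.5% of starts after EP400 siRNA and 90.2% after mock siRNA over 5663 such genes. It lay at 1 far end in both, against 10.7% and 16.1%. EP400 lay at 5 of 16 starts and 0 far ends, against 33.8% of starts and 4.56% of far ends. H3.3 lay at 6 starts (37.5%) and 3 far ends (18.8%) after EP400 siRNA, against 23.2% and 20.8%. After mock siRNA it lay at 13 starts (81.2%) and 4 far ends (25%), against 63.8% and 35.4%. H2AZ lay at 8 starts (50%) after EP400 siRNA, against 60.8%, and 15 (93.8%) after mock siRNA, against 81.4%. The 5 starts with EP400 therefore account for each EP400 peak at the ends of these 16 genes.

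Of the 35 members, 14 lie in loci with other genes or small RNAs, and peaks and reads there cannot be assigned to one gene. HARS1 and HARS2 have the same peaks, as do EPRS1 and IARS2. The peak counts above hold these peaks for each gene, so such genes are not independent in them. HARS1 and HARS2 share chr5:140053488-140078903, where the Pol II peak between them spanned chr5:140070901-140071300 after EP400 siRNA and chr5:140070701-140071600 after mock siRNA. Both RNAs were higher after EP400 siRNA, HARS1 by 1.09 and HARS2 by 0.81 on the log2 scale. EPRS1 and IARS2 share chr1:220046618-220321383 with BPNT1 and SLC30A10, and both were higher, by 0.82 and 0.96. SARS2 shares its locus with MRPS12, a mitochondrial ribosomal protein gene. Whether strand was used in counting is not given in the sources used here, so reads of overlapping genes cannot be told apart.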

How the data were processed

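U2OS cells were profiled by RNA-seq and ChIP-seq. The submitters' processing notes name TopHat2 2.0.8, Bowtie 0.12.9, the hg19 build and Cuffdiff 2.0.2. The authors deposited FPKM with confidence limits for 48669 transcripts, per the file headers. The FPKM carry no counts, so depth is unknown. Peaks are deposited regions without score or height, with caller and control not given in the sources used here. Inputs (4 libraries) were not analysed here.

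Rows under 200 nt were left out, 96.6% of rows got a symbol by RefSeq identifier from a GRCh38.p14 table used for names and strand, and rows were summed per gene. Of 24641 genes, 123 had a failed estimate. Genes at a mean of 1 FPKM or more were compared as log2 (FPKM + 1), with a 2-fold limit, in Python 3.11.15 with pandas 2.3.3 and numpy 2.4.6. The calculation was tested on simulated data. Peaks counted at 1 bp of overlap. The members and lists were chosen with earlier results of these data known. All members, EP400 and ATF4 were named, with up to 4 genes per related list, taken by absolute log2 ratio. PHGDH and EEF1A1 were added after their values were seen. Alternatives were other pseudocounts, filters, scalings, one row per gene, gene ends, overlaps and peak widths, and, added after seeing the data, peaks anywhere in the locus and peak length cut to the windows.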

Additional observations from a re-analysis of the deposited data

How the results depend on the processing

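The cytosolic count of 10 genes at least 2-fold higher kept within 1.5 times under each alternative run, and so did most values. The mitochondrial count of 0 was less stable. It was 2 with a pseudocount of 0.1 and with 0.5, 3 with median centring, 7 with equal sums (TPM), 1 with centring by density, 2 with centring by chromosome and 1 with the highest row of each gene. Centring by chromosome also put 1 cytosolic gene and 1 mitochondrial gene at least 2-fold lower, where 13.5% of all genes were. The median log2 ratio with equal sums was 1.84 for cytosolic and 0.98 for mitochondrial genes. With a mean of 5 FPKM or more, where fewer genes were tested, the mitochondrial median was -0.029. That of tRNA synthesis, ends and export was -0.15, so both were below 0. The mitochondrial genes left out at that limit were MARS2 (0.88), NARS2 (0.74), WARS2 (0.64) and RARS2 (0.35), all above 0 as deposited. The elongation median became 0.015 with centring by density. Of 272 log2 ratios of members under alternatives, 48 moved by 1.5-fold or more, 14 of them outside equal sums, and 0 of those at 2-fold or more changed sign. For peaks at gene ends, an overlap of 200 bp left EP400 at 4 cytosolic and 1 mitochondrial gene, and the whole locus gave 11 and 6. After EP400 siRNA, Pol II lay at 7 mitochondrial genes with the wider peaks of each list. H2AZ lay at 5 cytosolic genes with an overlap of 200 bp and 4 with the wider peaks. H3.3 lay at 5 cytosolic genes with ends of 1 kb, 6 with an overlap of 200 bp and 6 with the wider peaks, and at 8 mitochondrial genes in the whole locus. In mock cells, H3K18ac lay at 6 cytosolic and 3 mitochondrial genes with the wider peaks. H3K4me1 lay at 4 cytosolic genes with ends of 1 kb, with an overlap of 200 bp and with the wider peaks, and at 0 mitochondrial genes with ends of 1 kb, 6 with ends of 5 kb and 5 in the whole locus. With peak length cut to the windows, the members with less length after EP400 siRNA numbered 27 for Pol II, 18 for MED26, 14 for H2AZ and 9 for H3.3, against 27, 17, 14 and 9 with whole widths. The cause was not tested. No paired analysis was possible because each condition had 1 library, and the numbered EP400 immunoprecipitations came as 1 list. Unknown depth limits every peak length and every FPKM of low genes.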
